A study of Mus musculus with 12 samples.

Results

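The mouse aortic valve at postnatal day 10 was examined for 5 non-fibrillar collagen transcripts: Col12a1, Col14a1, Col16a1, Col8a1 and Col8a2. They are the 5 rows of the deposited count table, of 20620 in all, whose identifiers carry these symbols in the authors' deposited table, and all 5 passed the filter on low counts that left 19346 genes. The genes were chosen on their differences between the Notch1+/-;Gata5-/- and Wildtype groups in these same libraries, Col14a1 being set against Col8a1, Col12a1 and Col16a1. That comparison is therefore given as a description, with no test.

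The 12 libraries fall into 3 groups of 4. The Notch1+/-;Gata5-/- valves (called Gata5-null pools here) carry 1 mutant copy of Notch1 and no intact Gata5, the Notch1+/-;Gata5+/- valves (double-heterozygous-labelled pools) are labelled as carrying 1 mutant copy of each gene, and the Wildtype valves (wildtype pools) carry neither mutation. Each library is poly-A RNA from a pool of 3 dissected valves, so replication is between pools. Both mutant groups share the Notch1 mutation and no group has a Gata5 mutation alone, so the share of either gene in a difference from Wildtype cannot be told apart. The labels give no strain, sex or allele structure.

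Collagen XII (Col12a1) and collagen XIV (Col14a1) are fibril-associated collagens: they sit on the surface of collagen I fibrils and reach into the space between them, and are known for setting fibril spacing and diameter in tendon, skin and cornea. Collagen XVI (Col16a1) belongs to the same class and is found beside fibrillar collagen or fibrillin microfibrils. Collagen VIII (Col8a1 and Col8a2) is a short-chain collagen, a product of endothelial and vascular smooth muscle cells that assembles into hexagonal lattices in the basement membrane under the corneal endothelium. Valve leaflets owe their stiffness to a layer of collagen I and III fibrils, the surface on which the fibril-associated types act.

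Notch1 acts through the DNA-binding protein RBPJ and Gata5 binds GATA sites, so the promoters of the collagens were read for these letters. The RefSeq promoter table (GRCm38.p6) matched 3 of the 5 genes, Col8a1, Col8a2 and Col16a1. The 250 bases before each start are shown 5′ to 3′ on the gene's strand, with any motif match in capitals.
Col8a1 promoter, chr16:57754738-57754987 (-): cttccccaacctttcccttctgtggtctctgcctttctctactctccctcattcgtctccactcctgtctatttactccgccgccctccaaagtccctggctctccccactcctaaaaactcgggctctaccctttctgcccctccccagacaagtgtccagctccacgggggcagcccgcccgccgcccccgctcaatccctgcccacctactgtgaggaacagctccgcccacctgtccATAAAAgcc
Col8a2 promoter, chr4:126286544-126286793 (+): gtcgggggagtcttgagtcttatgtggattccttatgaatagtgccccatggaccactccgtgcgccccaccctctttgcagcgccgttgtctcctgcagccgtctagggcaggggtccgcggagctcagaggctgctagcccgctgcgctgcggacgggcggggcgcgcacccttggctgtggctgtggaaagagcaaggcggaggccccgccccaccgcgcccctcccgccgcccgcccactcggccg
Col16a1 promoter, chr4:130047590-130047839 (+): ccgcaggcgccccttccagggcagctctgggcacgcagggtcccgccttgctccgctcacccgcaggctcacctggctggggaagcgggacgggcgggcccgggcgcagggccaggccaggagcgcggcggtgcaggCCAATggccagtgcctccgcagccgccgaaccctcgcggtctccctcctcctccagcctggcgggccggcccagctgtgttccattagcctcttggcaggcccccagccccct
Both strands were searched for AGATAA or else TGATAA (both for GATA factors), TGGGAA (RBPJ core), CACGTG (E-box), TGANTCA (AP-1), CCAAT (bound by NF-Y), GGAATG (for TEAD factors), TATAAA (the core promoter box) and ATAAAA (its relative, which can overlap it), a list settled on after the windows were first searched. None of the 3 windows held a GATA or RBPJ match, which 10.3% (AGATAA), 8.16% (TGATAA) and 21.5% (TGGGAA) of 27025 promoters of the same length did. CCAAT matched once, in Col16a1, with its first base at -113 from the start, and 34.5% of all promoters hold it. ATAAAA matched once, in Col8a1 at -9, and 17.6% of promoters hold it. The other motifs had no match. The windows were GC-rich, at 60.8% in Col8a1, 70.0% in Col8a2 and 75.6% in Col16a1, against a median of 52.0% over all promoters. A match or its absence describes letters in this window and says nothing of a factor's binding.

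Libraries held 13866604 to 25059653 counts. CPM are counts rescaled by TMM-normalized library size, except that the limit for a count of 0 uses raw library totals. Gata5 had 0 counts in all 4 Gata5-null pools, which allows up to 0.120 to 0.216 CPM per library. It had 15 to 112 counts in double-heterozygous-labelled and 18 to 56 in wildtype pools. It averaged 4.09 ± 2.27 CPM in double-heterozygous-labelled and 1.77 ± 1.03 CPM in wildtype pools (SD, n = 4 each), and 3 of the 4 double-heterozygous-labelled pools were above every wildtype pool. Gata5 RNA was thus not lower on average in that group. Its replicate 4, at 0.728 CPM, was below the lowest wildtype pool, at 0.845 CPM. The Gata5 allele structure is not given, so these values leave the label of 1 lost copy unsettled. That group is called by its label throughout, and directions drawn from it rest on the label. Notch1 averaged 185 ± 29.5 CPM in Gata5-null, 172 ± 20.6 in double-heterozygous-labelled and 128 ± 26.4 in wildtype pools (SD, n = 4 each). The mutant Notch1 allele is not described, so these counts do not check the label. In all, 2 libraries stood apart: Gata5-null replicate 3, with 6000 genes at 0 and a mean Spearman correlation of 0.892 with the others across genes, and wildtype replicate 2, with 3208 and 0.925. The other 10 had 1017 to 2908 genes at 0 and correlations of 0.933 to 0.95. Markers of valve fibroblasts were abundant (summed CPM 19681 to 26132 over 11 genes), so were ventricular muscle markers (23684 to 55322 CPM over 9 genes), and both ranges overlapped between groups. Most of the fibroblast sum came from Col1a1 and Col3a1, which averaged 6499 and 10961 CPM in wildtype pools.

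Corrected for exon length, Col14a1 was by far the most abundant of the 5 transcripts in every pool. Among the others only Col16a1 and Col12a1 changed places between libraries. Mean levels over the 12 libraries were 187 CPM per kb of exon for Col14a1, 30.8 for Col16a1, 26.1 for Col12a1, 16.2 for Col8a1 and 10.5 for Col8a2. Col14a1 exceeded Col16a1 in 12 of 12 libraries, by 3.8 to 9.68 times. Col16a1 exceeded Col12a1 in 10 of 12 (ratios 0.908 to 1.49), so these neighbours are not apart beyond the spread between libraries. Col12a1 exceeded Col8a1, and Col8a1 exceeded Col8a2, in 12 of 12. Together the 5 genes took 0.177% to 0.243% of all counts in a library.

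In the Gata5-null pools Col14a1 averaged 0.746 times its level in wildtype pools, while the other 4 transcripts were 1.35 to 1.51 times higher. The double-heterozygous-labelled pools leaned the same way for all 5 genes, at 0.801 times the wildtype level for Col14a1 and 1.24 to 1.45 times for the others. Both comparisons share the wildtype libraries. The 5 genes were chosen on their differences from these same wildtype pools, so no p given for double-heterozygous-labelled against wildtype pools is independent of that choice. In edgeR's fit over all genes 5 of 19346 genes (0.0258%) were called in Gata5-null against wildtype pools at an adjusted p under 0.05, and none of them is among these 5 collagens.

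**Figure D1:**
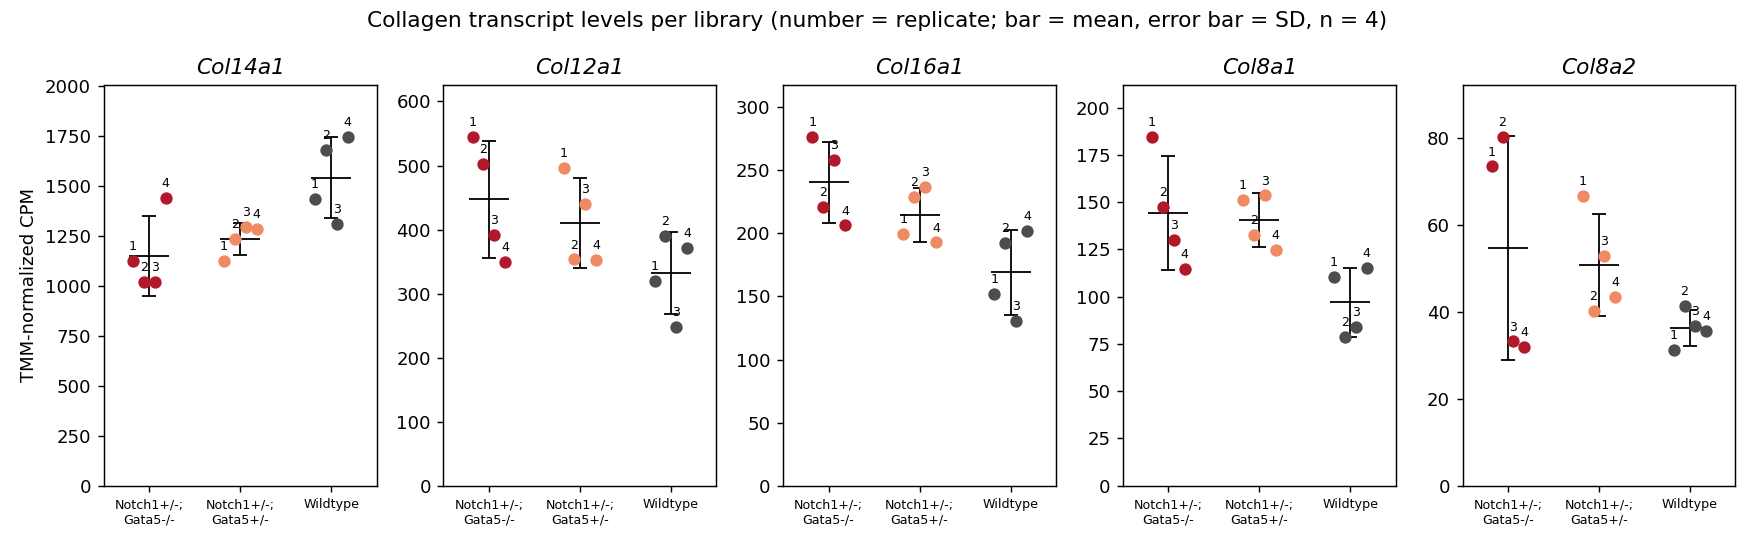
TMM-normalized CPM of the 5 collagen transcripts in each library, 1 panel per gene, with Notch1+/-;Gata5-/- pools on the left, Notch1+/-;Gata5+/- pools in the middle and Wildtype pools on the right (number = replicate, bar = mean, error bar = SD, n = 4). Col14a1 is lower on average in both mutant groups, with Gata5-null replicate 4 inside the wildtype range at 1443 CPM, and the other 4 genes are higher on average.

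Col14a1 (ENSMUSG00000022371), the fibril-associated collagen XIV chain, had 1127.3, 1019.5, 1019.6 and 1443.3 CPM in Gata5-null replicates 1 to 4. It had 1125.2, 1238.3, 1296.4 and 1287.9 CPM in the double-heterozygous-labelled pools, against 1435.4, 1682.1, 1312.9 and 1745.9 CPM in the wildtype pools. Gata5-null replicates 1, 2 and 3 lay below every wildtype pool and replicate 4 lay inside the wildtype range, whereas all 4 double-heterozygous-labelled pools lay below it. It averaged 1152 ± 200.4 in Gata5-null, 1237 ± 78.8 in double-heterozygous-labelled and 1544 ± 204 CPM in wildtype pools (SD, n = 4 each). The log2 fold change of Gata5-null over wildtype was -0.42 (SE 0.12), or -0.55 without replicate 4 and -0.32 without the 2 libraries that stood apart. Double-heterozygous-labelled over wildtype it was -0.32 (SE 0.12), with an exact two-sided permutation p of 0.0286, the smallest that 4 against 4 can give, and an edgeR adjusted p of 1. Col14a1 was chosen against these wildtype pools, so this p is not independent evidence.

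Smooth muscle markers were lower alongside Col14a1. Their summed level over 11 genes was 4036 to 5441 CPM in Gata5-null, 5292 to 6091 in double-heterozygous-labelled and 5901 to 7853 in wildtype pools, and none of the 11 was at 0 in any group. EdgeR called 4 of the 11 lower in Gata5-null than in wildtype pools, among them Myh11, the smooth muscle myosin heavy chain, at 1397 ± 208 CPM in Gata5-null against 2357 ± 365 CPM in wildtype pools (log2 fold change -0.75, SE 0.12, edgeR adjusted p = 0.0136), where 5 of 19346 genes (0.0258%) were called in all. None of the 11 was called with only the 8 libraries compared (Myh11 edgeR adjusted p = 0.2) or without the 2 libraries that stood apart (0.159). Myh11 also missed the threshold without wildtype replicate 2 (edgeR adjusted p = 0.162), Gata5-null replicate 1 (0.15) or Gata5-null replicate 2 (0.0621). Those fits called 1, 2 and 2 of the 11. Without any other 1 library Myh11 stayed called, and with all libraries DESeq2 called 7 of the 11 and limma-voom 5. Replicate 4, the Gata5-null pool highest in Col14a1, was also the highest of its group in this sum, at 5441 against 4036 to 4282 CPM. Col14a1 divided by the sum, a ratio chosen after these values were seen, was 0.238 to 0.279 in Gata5-null, 0.211 to 0.235 in double-heterozygous-labelled and 0.221 to 0.224 in wildtype pools. Set against these markers, Col14a1 was thus above the wildtype range in all 4 Gata5-null pools and on both sides of it in the double-heterozygous-labelled pools. In pooled tissue, fewer cells of a type and less RNA per cell cannot be told apart. The part of these markers in the Col14a1 difference was not tested.

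Col12a1 (ENSMUSG00000032332), the other large fibril-associated chain, had 544.2, 502.8, 391.5 and 349.9 CPM in Gata5-null pools. In double-heterozygous-labelled pools it had 496.3, 353.5, 440.7 and 352.3 CPM, against 319.7, 390.4, 247.8 and 371.4 CPM in wildtype pools. Both mutant ranges overlapped the wildtype range: Gata5-null replicate 4 and double-heterozygous-labelled replicates 2 and 4 lay within it. The averages were 447 ± 91.4 in Gata5-null, 411 ± 70.5 in double-heterozygous-labelled and 332 ± 63.8 CPM in wildtype pools, with log2 fold changes over wildtype of 0.43 (SE 0.16) in Gata5-null and 0.31 (SE 0.16) in double-heterozygous-labelled pools. For the double-heterozygous-labelled pools the exact permutation p was 0.2 and the edgeR adjusted p was 1, and the log2 fold change was 0.19 without wildtype replicate 3 and 0.20 without double-heterozygous-labelled replicate 1.

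Col16a1 (ENSMUSG00000040690) had 276.2, 221.3, 258.1 and 206.3 CPM in Gata5-null pools, 199.7, 228.6, 236.6 and 192.8 CPM in double-heterozygous-labelled pools and 152.2, 192.3, 130.5 and 201.8 CPM in wildtype pools. It was the only one of the 5 genes whose Gata5-null and wildtype pools did not overlap, and 2.93% of all tested genes had no overlap there. The genes were chosen on this comparison, so the lack of overlap is a description. Double-heterozygous-labelled replicates 1 and 4 lay within the wildtype range. Col16a1 averaged 241 ± 32.3 in Gata5-null, 214 ± 21.4 in double-heterozygous-labelled and 169 ± 33.6 CPM in wildtype pools. Log2 fold changes over wildtype were 0.51 (SE 0.14) in Gata5-null and 0.34 (SE 0.14) in double-heterozygous-labelled pools, the second with an exact permutation p of 0.114 and an edgeR adjusted p of 1.

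Col8a1 (ENSMUSG00000068196), the alpha 1 chain of the short-chain collagen VIII, had 184.3, 147.6, 130.2 and 114.8 CPM in Gata5-null pools. It had 151.3, 132.8, 153.5 and 124.5 CPM in double-heterozygous-labelled pools, against 110.3, 78.8, 83.8 and 115.1 CPM in wildtype pools. Every double-heterozygous-labelled pool was above every wildtype pool, and in the Gata5-null group only replicate 4 was below the highest wildtype pool, at 114.8 against 115.1 CPM. Col8a1 averaged 144 ± 29.9 in Gata5-null, 141 ± 14.2 in double-heterozygous-labelled and 97.0 ± 18.3 CPM in wildtype pools. Log2 fold changes over wildtype were 0.57 (SE 0.16) in Gata5-null and 0.54 (SE 0.16) in double-heterozygous-labelled pools, the second with an exact permutation p of 0.0286, which is likewise not independent of the choice of the gene, and an edgeR adjusted p of 1.

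Col8a2 (ENSMUSG00000056174), the alpha 2 chain, had the largest coefficient of variation of the 5 genes in both mutant groups and the smallest in wildtype pools. It had 73.5, 80.2, 33.2 and 32.0 CPM in Gata5-null pools, where 2 pools were at wildtype levels and 2 were above every other library. It had 66.6, 40.3, 52.8 and 43.5 CPM in double-heterozygous-labelled pools, against 31.2, 41.3, 36.7 and 35.6 CPM in wildtype pools. Col8a2 averaged 54.7 ± 25.7 in Gata5-null, 50.8 ± 11.8 in double-heterozygous-labelled and 36.2 ± 4.15 CPM in wildtype pools. Its coefficient of variation was 46.9% in Gata5-null, 23.2% in double-heterozygous-labelled and 11.5% in wildtype pools. Log2 fold changes over wildtype were 0.60 (SE 0.26) in Gata5-null, or 0.85 without the 2 libraries that stood apart and 0.35 without Gata5-null replicate 2, and 0.49 (SE 0.26) in double-heterozygous-labelled pools (exact permutation p = 0.0571, edgeR adjusted p = 1).

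**Figure D2:**
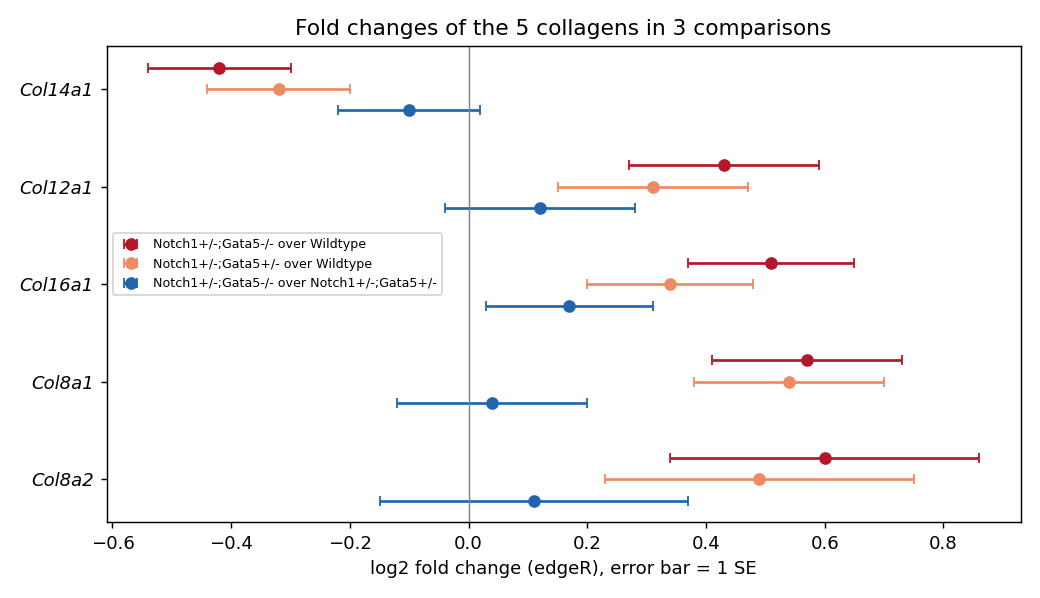
Log2 fold changes from edgeR (x axis, error bar = 1 SE) of the 5 collagens for Notch1+/-;Gata5-/- over Wildtype, Notch1+/-;Gata5+/- over Wildtype and Notch1+/-;Gata5-/- over Notch1+/-;Gata5+/-. Col14a1 lies left of 0 and the other 4 genes right of it in the first 2 comparisons, which share the Wildtype libraries, and the third lies between -0.10 and 0.17.

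Over all genes few differences could be called between the double-heterozygous-labelled and wildtype pools. EdgeR called 0 of 19346 genes (0.0%), limma-voom 0 and DESeq2 8, and 242 genes (1.25%) had an unadjusted edgeR p under 0.05. Of the 5 collagens 3 had one (Col8a1, 0.00239, Col14a1, 0.0167, and Col16a1, 0.0251), and 2 of 5 (Col8a1 and Col14a1) had groups without overlap, as did 2.24% of all genes. Since the genes were chosen for how they stood to these same wildtype pools, their share is not an independent count.

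Gata5-null and double-heterozygous-labelled pools differ in the second Gata5 copy, and none of the 5 collagens was separated between them. The genes were chosen on how these same Gata5-null pools differed from wildtype, so no p or interval here is independent of that choice. EdgeR called 0 of 19346 genes (0.0%), limma-voom 0 and DESeq2 13. Of the 616 genes (3.18%) with an unadjusted p under 0.05, and of the 2.73% whose groups did not overlap, none was one of these 5. The log2 fold change of Gata5-null over double-heterozygous-labelled was 0.04 for Col8a1 (95% interval -0.32 to 0.39), 0.11 for Col8a2 (-0.49 to 0.70), 0.12 for Col12a1 (-0.24 to 0.48), -0.10 for Col14a1 (-0.38 to 0.18) and 0.17 for Col16a1 (-0.16 to 0.49). Exact permutation p-values were 0.229 to 1. For Col8a2, Col12a1, Col14a1 and Col16a1 the interval takes in a difference as large as that of the double-heterozygous-labelled from the wildtype pools, so a difference of that size is not excluded.

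The balance of the 5 transcripts within a pool does not depend on library scaling. It sets Col14a1 against the others, as the choice of the genes did against these same wildtype pools, so it is a description for both mutant groups. Col14a1 made up 58.0%, 58.6%, 62.3% and 73.2% of the 5 genes' summed CPM per kb in Gata5-null replicates 1 to 4. Its share was 62.5%, 68.0%, 66.0% and 70.4% in double-heterozygous-labelled pools and 76.0%, 76.6%, 77.5% and 76.4% in wildtype pools. All 8 mutant pools lay below the narrow range of the wildtype pools. How often other sets of genes do so was not counted. The average share was 63.0% ± 7.05 in Gata5-null, 66.7% ± 3.35 in double-heterozygous-labelled and 76.6% ± 0.61 in wildtype pools. The sum itself was 259.9 ± 23.1 in Gata5-null, 264 ± 10.7 in double-heterozygous-labelled and 288 ± 39.0 CPM per kb in wildtype pools.

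**Figure D3:**
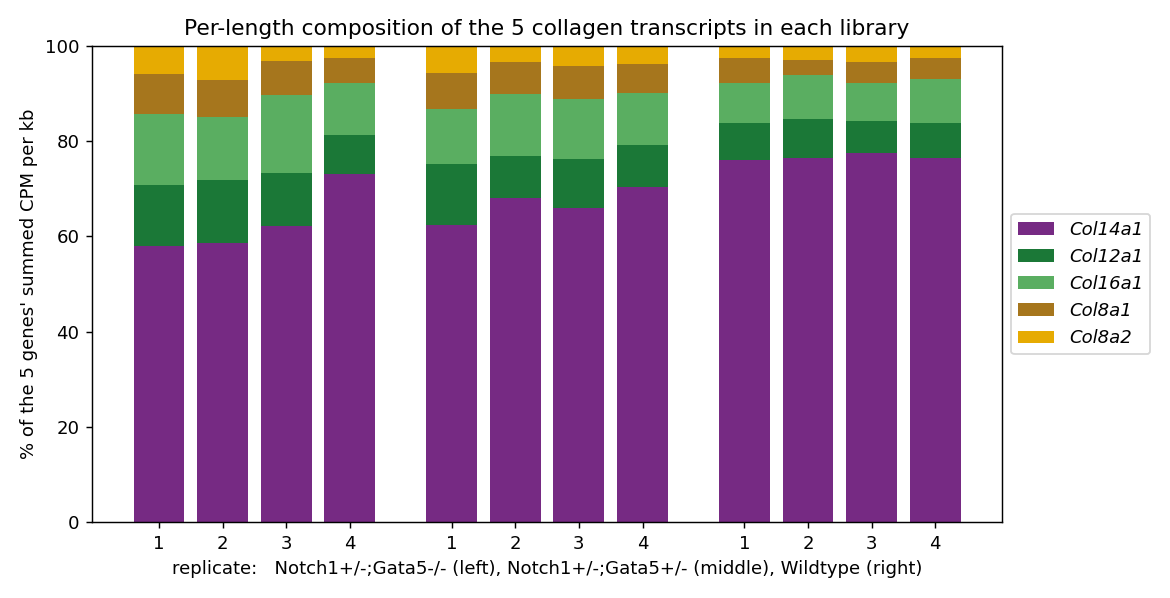
Share of each of the 5 collagens in their summed CPM per kb of exon (y axis, percent), 1 bar per library, with Notch1+/-;Gata5-/- on the left, Notch1+/-;Gata5+/- in the middle and Wildtype on the right. Col14a1 takes 58.0% to 73.2% in Gata5-null pools, 62.5% to 70.4% in double-heterozygous-labelled pools and 76.0% to 77.5% in wildtype pools.

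Per kb, Col14a1 was 3.8 to 6.73 times Col16a1 in Gata5-null and 5.21 to 6.43 times in double-heterozygous-labelled pools, against 8.33 to 9.68 times in wildtype pools. To Col12a1 the ratio was 4.4 to 8.96 in Gata5-null, 4.92 to 7.94 in double-heterozygous-labelled and 9.36 to 11.5 in wildtype pools. To Col8a1 it was 6.83 to 14.0 in Gata5-null, 8.31 to 11.6 in double-heterozygous-labelled and 14.5 to 23.8 in wildtype pools. In these 3 ratios the mutant and wildtype ranges did not overlap, and replicate 4 was the Gata5-null pool closest to wildtype. To Col8a2 the Gata5-null range of 8.13 to 28.9 overlapped the wildtype range of 22.9 to 31.4, and the double-heterozygous-labelled range of 10.8 to 19.7 did not. The choice of the genes bears on these directions and on the lack of overlap in both mutant groups, so they are a description. Ratios of other genes were not computed, so no share over all genes stands beside them.

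Gata5-null replicate 4 had its group's highest Col14a1 and its lowest Col12a1, Col16a1, Col8a1 and Col8a2. Several marker lists were at their group's extreme in that pool, while valve fibroblast, atrial muscle, macrophage, mesothelial and erythroid markers were not. With 4 pools in a group, any pool is often the highest or lowest for a list. These extremes are thus a description and do not set the pool apart. Chondrogenic markers were lowest: their summed level over the 10 of 11 tested genes (Matn1 did not pass the filter) was 514 CPM there and 839.8 to 1207 CPM in the other Gata5-null pools, against 632 to 870.2 in double-heterozygous-labelled and 479.9 to 710.4 in wildtype pools. None of the 10 was at 0 in a group. Melanocyte markers were also lowest, at 86.2 CPM against 124 to 174 in the other Gata5-null pools. Highest were endothelial (1341 CPM against 960.2 to 1058), ventricular muscle (54951 against 38229 to 49832), adipocyte (384 against 273 to 319), adventitial (1079 against 986 to 1073) and Schwann cell markers (18.4 against 10.7 to 16.2), beside the smooth muscle markers given above. Whether any of these cell types bears on Col12a1, Col16a1 or collagen VIII was not tested. Without this pool the log2 fold changes of Gata5-null over wildtype were 0.67 for Col8a1, 0.78 for Col8a2, 0.53 for Col12a1 and 0.57 for Col16a1. Leaving out the lowest pool of a group can only raise them, and without replicate 1 they were 0.45 for Col8a1, 0.44 for Col8a2, 0.34 for Col12a1 and 0.45 for Col16a1.

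Of the 10 pairs of these collagens, Col8a2 and Col12a1 had the highest correlation between pools of the same genotype with all 12 libraries, but no pair passed the adjusted threshold and the order changed without the 2 libraries that stood apart. After each group's mean was removed, Pearson's r over the 12 libraries was 0.76 for Col8a2 and Col12a1 (exact permutation p within genotypes 0.0156, 0.156 adjusted over the 10 pairs), with a Spearman rho of 0.75 (exact p 0.0236, adjusted 0.124). Without the 2 libraries farthest from the median of Col8a2, r was 0.72 (exact permutation p 0.0434). For Col8a1 and Col12a1 r was 0.63 (exact p 0.064, adjusted 0.217) with a rho of 0.59 (exact p 0.0811, adjusted 0.27). It was 0.45 without the 2 farthest, and 0.93 without the 2 libraries that stood apart (exact p 0.00347, adjusted 0.0347). For Col12a1 and Col16a1 r was 0.62 (exact p 0.0652, adjusted 0.217) and rho 0.71 (exact p 0.0248, adjusted 0.124), and r was 0.23 without the 2 farthest. Col12a1 and Col14a1 had an r of -0.01 (exact p 0.982, adjusted 0.982) and a rho of 0.00. Other pairs with Col14a1 moved with the libraries left out. For Col8a2 and Col14a1 r was -0.35 (exact p 0.501), 0.14 without the 2 farthest, and -0.73 without the 2 libraries that stood apart (exact p 0.0486, adjusted 0.122). For Col14a1 and Col16a1 r was 0.30 (exact p 0.406), and 0.75 without the 2 farthest (exact p 0.059). Without the 2 libraries that stood apart r was 0.77 for Col8a1 and Col16a1 and 0.76 for Col8a2 and Col12a1, both below that of Col8a1 and Col12a1.

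**Figure D4:**
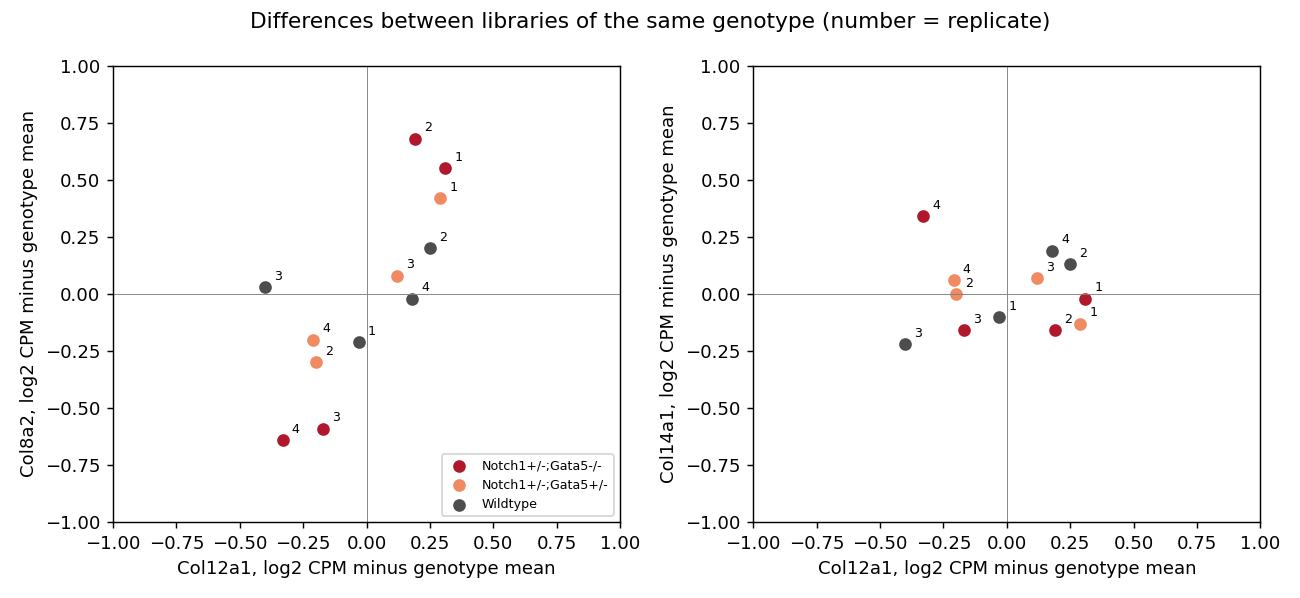
Deviation of log2 CPM from the genotype mean in each library (number = replicate), Col12a1 on the x axis against Col8a2 (left) and Col14a1 (right) on the y axes, with Notch1+/-;Gata5-/-, Notch1+/-;Gata5+/- and Wildtype pools coloured. Pearson's r is 0.76 on the left and -0.01 on the right, and neither pair passed the adjusted threshold.

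The genes most like each collagen were ranked by Pearson's r of log2 CPM over the 12 libraries among 9721 genes with a mean log2 CPM of at least 3. These values are a description, since the libraries share genotype differences and depth, and r within genotypes is given beside them. For Col14a1 they were Cpe (carboxypeptidase E), Stom (stomatin, a membrane protein), Tpm2 (beta-tropomyosin of the contractile apparatus) and Vcl (vinculin, an adhesion protein), at 0.96, 0.96, 0.95 and 0.95, and 0.97, 0.94, 0.89 and 0.94 within genotypes. Vcl averaged 336 ± 73.3 CPM in Gata5-null, 413 ± 27.6 in double-heterozygous-labelled and 507 ± 72.9 in wildtype pools, and Cpe 421 ± 63.5 in Gata5-null, 487 ± 27.3 in double-heterozygous-labelled and 602 ± 56.4 CPM in wildtype pools.

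The 4 genes most like Col8a2 were Fmod (fibromodulin, a small proteoglycan that binds collagen fibrils) at 0.94, Col11a1 (a chain of the fibrillar collagen XI) at 0.90, Cilp2 (of the cartilage intermediate layer protein family) at 0.88 and Mboat7 (a membrane-bound acyltransferase) at 0.88. Fmod, for example, averaged 208 ± 87.5 CPM in Gata5-null, 196 ± 49.8 in double-heterozygous-labelled and 154 ± 19.8 CPM in wildtype pools. Within genotypes the 4 values were 0.93, 0.89, 0.89 and 0.87. For Col12a1 the 4 genes were Drp2 and Penk at 0.91, Wnt5a, a secreted signalling protein, at 0.90, and the heparan sulfate proteoglycan Sdc3 at 0.89. Within genotypes these 4 values were 0.86, 0.86, 0.92 and 0.84. Penk encodes proenkephalin and averaged 24.3 ± 9.8 CPM in Gata5-null, 16.9 ± 5.75 in double-heterozygous-labelled and 10.9 ± 6.21 CPM in wildtype pools. The genes most like Col8a1 (Pak4, 0.88) and Col16a1 (Syde1, 0.90) had lower values over the 12 libraries. Within genotypes the 4 nearest to Col8a1 had values of 0.53 to 0.90 and the 4 nearest to Col16a1 0.72 to 0.87. The 4 nearest to Col8a1 ranked 52 to 83 once the 2 libraries that stood apart were left out.

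Other collagens showed no call in any comparison. Of the 38 tested, 20 were higher and 18 lower in Gata5-null than in wildtype pools, with a median log2 fold change of 0.09, against -0.03 over all 19346 genes. At an unadjusted edgeR p under 0.05, which 5.4% of all genes had, 3 were higher and 4 lower. In double-heterozygous-labelled pools 23 of the 38 were higher and 15 lower, with a median of 0.06, against 0.00 over all genes.

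Of the 6 other fibril-associated chains tested, 3 (Col9a1, Col9a2 and Col9a3) are chains of collagen IX, so they are not separate members. Of the 6 (Col21a1 did not pass the filter), 5 were higher in Gata5-null than in wildtype pools, with a median log2 fold change of 0.46, and 6 of 6 in double-heterozygous-labelled pools, with a median of 0.53. The lower one in Gata5-null pools was Col20a1, named after its value was seen, at -1.58 (SE 1.38), and at 0.61 (SE 1.35) in double-heterozygous-labelled pools. Chondrogenic markers were higher beside them in 9 and 8 of 10, with medians of 0.49 and 0.41. Col9a1 is in both lists, so the lists are not separate, and the part of the chondrogenic markers was not tested. Col9a1, a chain of the cartilage collagen IX, had 105 ± 43.6 CPM in Gata5-null and 97.0 ± 30.0 in double-heterozygous-labelled pools, against 71.3 ± 17.5 CPM in wildtype pools. Col22a1, a collagen of tissue junctions, had 17.5 ± 8.96 in Gata5-null, 18.3 ± 6.94 in double-heterozygous-labelled and 9.74 ± 2.05 CPM in wildtype pools, with edgeR adjusted p-values of 0.86 and 1 for the mutant groups against wildtype. Col10a1, the other short-chain collagen and a marker of hypertrophic cartilage, had 8.5 ± 8.09 in Gata5-null, 3.65 ± 1.01 in double-heterozygous-labelled and 5.88 ± 1.45 CPM in wildtype pools.

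Fibrillar collagens form the fibrils on which the fibril-associated types act. Their median log2 fold change was 0.13 in Gata5-null and 0.14 in double-heterozygous-labelled over wildtype pools, with 9 and 8 of 11 higher. Col1a1 had 7468 ± 1112 CPM in Gata5-null, 6961 ± 966 in double-heterozygous-labelled and 6499 ± 1047 in wildtype pools (log2 fold changes over wildtype 0.20 and 0.10, SE 0.13 each). For Col3a1 these log2 fold changes were -0.09 and 0.04 (SE 0.10 each). Col2a1, the cartilage fibril collagen, had 204 ± 129.5 CPM in Gata5-null, 142 ± 33.4 in double-heterozygous-labelled and 78.9 ± 27.8 in wildtype pools, with edgeR adjusted p-values of 0.86 and 1. Beaded-filament collagens were higher in 1 of 5 in both comparisons, with medians of -0.18 and -0.10, and Col6a6 was at -0.49 (SE 0.13) and -0.38 (SE 0.13). Basement membrane collagens were higher in 1 of 9 in Gata5-null pools, with a median of -0.14 and Col4a6 at -0.74 (SE 0.15, edgeR adjusted p = 0.139), and in 5 of 9 in double-heterozygous-labelled pools, with a median of 0.05. Membrane-spanning and other collagens were higher in 3 of 6 in both, with medians of -0.04 and -0.08.

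**Figure D5:**
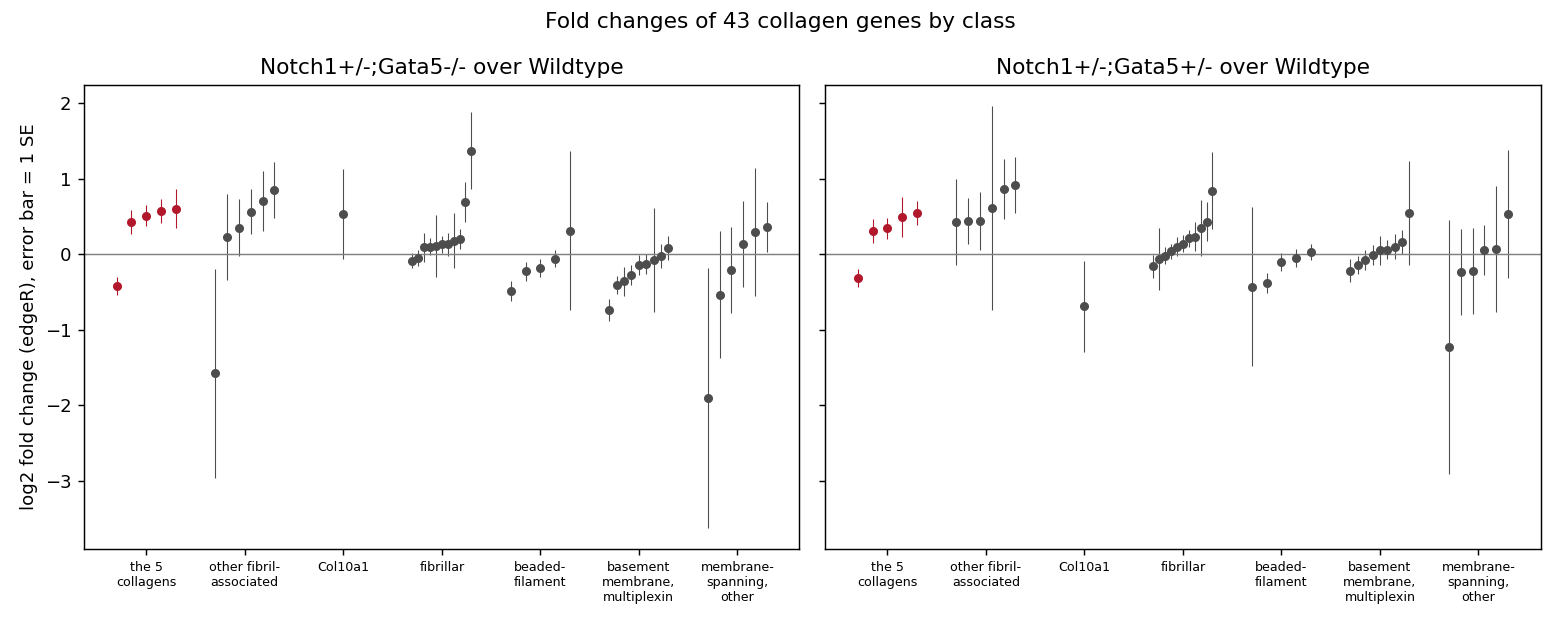
Log2 fold changes (y axis, edgeR, error bar = 1 SE) of 43 collagen genes by class for Notch1+/-;Gata5-/- over Wildtype (left) and Notch1+/-;Gata5+/- over Wildtype (right), with the 5 collagens described here in red. The other fibril-associated chains have medians of 0.46 and 0.53, and the beaded-filament chains -0.18 and -0.10.

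Genes that act with these collagens had no call either. Of 21 partners at the fibril surface, 12 were higher in Gata5-null and 13 in double-heterozygous-labelled than in wildtype pools (medians 0.04 and 0.07). Comp, a cartilage matrix protein that binds collagens, had 76.6 ± 41.7 in Gata5-null, 64.2 ± 18.6 in double-heterozygous-labelled and 39.1 ± 9.04 CPM in wildtype pools. Tnxb, tenascin-X, which binds collagens XII and XIV, had 332 ± 48.5 in Gata5-null, 376 ± 106 in double-heterozygous-labelled and 422 ± 62.2 CPM in wildtype pools. Of 31 genes of collagen synthesis and processing, 12 and 13 were higher, with medians of -0.07 and -0.04. Loxl1, a lysyl oxidase, had 178 ± 14.4 CPM in Gata5-null, 216 ± 21.6 in double-heterozygous-labelled and 237 ± 36.7 in wildtype pools (edgeR adjusted p = 0.738 for Gata5-null against wildtype). The 9 tested collagen receptors (Gp6 did not pass) and the 8 tested genes of collagen breakdown (Mmp8, Mmp9 and Mmp13 did not pass) had medians of 0.00 and -0.07 in Gata5-null and 0.01 and 0.05 in double-heterozygous-labelled over wildtype pools.

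No marker list besides that of smooth muscle held a called gene. Valve fibroblast markers were higher in 6 of 11 in Gata5-null and 10 of 11 in double-heterozygous-labelled over wildtype pools (medians 0.03 and 0.07), and adventitial fibroblast markers in 4 and 9 of 9 (medians -0.03 and 0.24). Endothelial markers, from a cell type known to make collagen VIII, were higher in 8 and 6 of 10 (medians 0.12 and 0.15), with summed levels of 960.2 to 1341 CPM in Gata5-null, 936 to 1279.9 in double-heterozygous-labelled and 949.7 to 1171 in wildtype pools. Ventricular muscle markers were higher in 9 and 7 of 9 (0.18 and 0.10) and melanocyte markers in 5 and 5 of 6 (0.31 and 0.19). Medians were -1.47 and -0.77 for atrial muscle, -0.07 and 0.20 for macrophage, -0.28 and 0.10 for mesothelial, -0.42 and -0.15 for Schwann cell, 0.12 and 0.13 for erythroid and -1.91 and -1.40 for adipocyte markers. These medians are log2 fold changes, Gata5-null first, over wildtype pools, and the absence of calls holds for 12 lists and 3 comparisons by edgeR. Summed adipocyte markers overlapped between groups, at 273 to 384 CPM in Gata5-null, 225 to 367 in double-heterozygous-labelled and 276 to 360 in wildtype pools. Most of that sum was Fabp4, at log2 fold changes of 0.12 and 0.02 (SE 0.18 each), so the adipocyte medians come from genes of low level.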

How the data were processed

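RNA from aortic valves was sequenced in 12 libraries of 3 pooled valves each. The authors deposited raw counts per gene, made with Trim Galore and STAR 2.7.10b on GRCm39 per the submitters' processing notes. The read counter, annotation and strand setting were not given in the sources used here, so intronic reads of antisense genes could not be separated. The authors' deposited table, made with DESeq2 1.34.0 per the same notes, holds log2 fold changes with their errors and test statistics (scores), a mean signal after normalization, and raw and adjusted p-values. It names no comparison and served for gene symbols. Once rounded, its log2 fold changes for the 5 collagens match those of DESeq2 run here for Gata5-null over wildtype pools. Examples are -0.40 for Col14a1 and 0.54 for Col16a1. In the authors' deposited table none of the 5 collagens is marked as changed. Col12a1 and Col14a1 overlap genes on the opposite strand with 0 shared exon bases (GENCODE vM21, an older build, also the source of exon lengths).

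Counts were fitted in R 4.3.3 with edgeR 4.0.16: TMM, filterByExpr (19346 of 20620 genes kept), a robust quasi-likelihood F test with 3 group terms over all 12 libraries, and Benjamini-Hochberg adjustment, called under 0.05. SEs are the log2 fold change over the square root of F, and log2 CPM used a prior count of 2. Single genes were compared by exact two-sided permutation over 35 distinct splits, and pairs of genes over 13824 orders within genotypes. The fit and the permutation test were tested on simulated data. Replicates are pools, and nothing says that pools with the same number share a litter or day: same-numbered pools deviated with correlations of -0.0331 to 0.0951, so the numbers do not pair them. Floors for a count of 0 are 3 counts over the raw library total, and cover counting error only.

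The 5 genes and the 10 matrix and 13 cell-marker lists (204 genes) were chosen with earlier results of these data known. Other genes named come from these lists (matrix: smallest edgeR p against wildtype, 3 for Gata5-null and 2 for double-heterozygous-labelled pools; cells: 2 of highest level) or from the 4 genes most like each collagen, and the text names some of those the rule gives. Alternatives were RLE and upper quartile normalization, no filter on counts or a stricter one (CPM of 1 in 4 libraries), the DESeq2 1.42.0 test, limma 3.58.1 (voom), the 8 libraries compared alone, a replicate block, a prior count of 0.5, each library left out, and the 2 libraries that stood apart left out.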

Additional observations from a re-analysis of the deposited data

Results flagged for a closer look

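In 5 cases the value of a gene named here stood far from the other 3 pools of its group, with a gap to the nearest above Dixon's 95% critical value. Chance gives about 1 in 20 groups, and 101 groups were looked at. Over all genes that the naming rule gives, 254 groups held 16 such values, and the 5 are those of genes picked for the text after values were seen. None concerned Col8a1, Col8a2, Col12a1, Col14a1 or Col16a1.

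In the double-heterozygous-labelled group, Comp was 92.0 CPM in replicate 1 and 52.7 to 56.8 CPM in the others. Pak4 was 12.6 CPM in the same pool and 8.29 to 8.87 CPM in the others. Gata5 was 0.728 CPM in replicate 4 and 4.94 to 5.66 CPM in the others. In the Gata5-null group Tpm2, among the genes most like Col14a1, was 218 CPM in replicate 4 and 159 to 167 CPM in the others. In the wildtype group Wnt5a, among those most like Col12a1, was 47.0 CPM in replicate 3 and 62.3 to 65.4 CPM in the others.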

How the results depend on the processing

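The log2 fold changes of the 5 collagens over wildtype kept their sign under all alternatives run, in Gata5-null and in double-heterozygous-labelled pools. Over double-heterozygous-labelled pools the Gata5-null values near 0 did not: Col8a2 was -0.0035 with limma-voom, and leaving out 1 library gave -0.08 to 0.13 for Col8a1 and -0.14 to 0.29 for Col8a2. As differences of mean log2 CPM these ranges were -0.10 to 0.12 (0.02 with all) and -0.22 to 0.22 (0.01 with all). In double-heterozygous-labelled against wildtype pools, leaving out 1 library gave -0.39 to -0.25 for Col14a1, 0.46 to 0.64 for Col8a1, 0.33 to 0.57 for Col8a2, 0.24 to 0.45 for Col16a1 and 0.18 to 0.40 for Col12a1 (the lowest without wildtype replicate 3). For Col8a1 and Col14a1 the exact p became 0.0571 without any 1 double-heterozygous-labelled pool, with the groups still apart, and it became 0.0286 for Col8a2 without double-heterozygous-labelled replicate 2 and for Col16a1 without wildtype replicate 4.

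Genes called in Gata5-null against wildtype pools numbered 5, but 0 with the 8 libraries alone (504 at an unadjusted p under 0.05), 49 with DESeq2, 2 without the 2 libraries that stood apart and 2 to 21 with 1 library left out (2 without wildtype replicate 2, 3 without Gata5-null replicate 1 and 21 without Gata5-null replicate 4). Double-heterozygous-labelled against wildtype gave 0, and 8 with DESeq2. Gata5-null against double-heterozygous-labelled gave 0, but 13 with DESeq2, 2 without the 2 libraries and 0 to 1 with 1 library left out. With the replicate block the counts were 7, 0 and 0, and the numbers do not pair the pools. The Col8a1 and Col12a1 correlation was 0.93 without the 2 libraries. Causes were not tested. The 4 pools per group limit what can be called.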
